A study of Mus musculus with 18 samples.

Results

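The cerebellum of Aldh5a1-/- mice was set against the forebrain of the same animals. Of the 18 arrays in the series, 9 belong to this comparison: 3 knockout (KO) animals, numbered 3363, 3389 and 3403 in the labels, each gave 1 array of cerebellum, 1 of hippocampus and 1 of cortex. For every gene the cerebellum value was compared with the mean of that animal's hippocampus and cortex values on the log2 scale, which gave 3 pairs. The other 9 arrays hold the same 3 regions of wild-type (Wt) animals 3405, 3406 and 3396, and served only to set the KO values against. All are Mus musculus total RNA hybridised to a mouse Affymetrix expression array. The labels give no age, sex, strain, litter or description of the targeted allele. The source label reads hippocampus for every sample, so regions follow the sample titles and descriptions.

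Aldh5a1 encodes succinic semialdehyde dehydrogenase, a mitochondrial enzyme that completes the breakdown of the inhibitory transmitter GABA. Without it, GABA and gamma-hydroxybutyrate build up in the brain, and people who lack it have a neurometabolic disease. The array carries 0 probe sets for Aldh5a1, so the genotype rests on the labels. The cerebellum and forebrain are built from different neurons. The cerebellar cortex holds a vast population of small excitatory granule neurons, a single sheet of large inhibitory Purkinje cells, inhibitory interneurons and the specialised astrocytes called Bergmann glia. The hippocampus and cortex hold pyramidal (and, in the hippocampus, dentate granule) neurons with several classes of interneuron. All values are from bulk tissue, in which fewer cells of a type and less RNA per cell cannot be told apart.

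The 9 KO arrays fell by region. Each lay closest to another array of its own region (9 of 9), with Pearson r across probe sets of 0.957 to 0.974 within a region, 0.925 to 0.938 between hippocampus and cortex and 0.846 to 0.867 between cerebellum and forebrain. Probe sets are not independent, so these r are descriptions. The cerebellum-forebrain axis took 55.5% of the sum of squares over the 9 arrays, hippocampus against cortex 16.7% and differences between animals 11.985%. Of 8382 probe sets tested, 1781 (21.2%) had more signal in KO cerebellum and 2084 (24.9%) had less, so that 46.1% were called at an adjusted p under 0.05 (limma, Benjamini-Hochberg). At an unadjusted p under 0.05 there were 4506 (53.8%). The 3 cerebellum arrays lay wholly above the 6 forebrain arrays for 1333 probe sets (15.9%) and wholly below for 1438 (17.2%). Of the called probe sets, 3843 of 3865 had the same sign in all 3 animals. Most differences were modest: among the 8382 tested, 434 called probe sets (5.18%) stood at least 1 log2 unit above forebrain and 544 (6.49%) as far below, and 119 (1.42%) and 118 (1.41%) at least 2. The split between higher and lower depended on the scaling: with each array set to the same median it was 2263 higher and 1584 lower, and with quantile normalization 1879 and 1862. The median of all probe sets moved from -0.058 to 0.045 under median scaling, a shift of 0.103, so small differences are read against it.

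KO cerebellum against hippocampus alone called 41.6% of probe sets (19.1% higher, 22.5% lower) and against cortex alone 40.9% (19.4% higher, 21.5% lower). Both comparisons called 1056 probe sets as higher and 1239 as lower, which is 2295 of the 3865 called against their mean. Taking the brightest probe set of each gene, 1394 of 6249 genes (22.3%) were higher and 1558 (24.9%) lower, with a median log2 difference of -0.037. The counts for gene lists below are read against these shares. Array values are given as signal, a scaled linear intensity, in the order of animals 3363, 3389 and 3403. Signals under a floor of 9.46, the 20th percentile of all values, were raised to it before log2 was taken. Where arrays of the lower side are under the floor, a log2 difference is the smallest size the values allow, its SE leaves out the spread below the floor, and where all of them are, an at-least fold is given. A gene that lies near this floor in one region could be tested only because it is bright in another, so such members had to differ, and list counts are descriptions.

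Granule neuron genes were among those furthest above forebrain in KO cerebellum. Gabra6 encodes the alpha 6 subunit of the GABA-A receptor, a hallmark of cerebellar granule neurons. Its signal was 1709.8, 1845 and 1926 in cerebellum, beside 31.1, 32.3 and 18.8 in hippocampus and 26.7, 26.6 and 18.7 in cortex. The cerebellum arrays stood far above every forebrain array, 72.7-fold on average (log2 difference 6.18 ± 0.16 (SE), adjusted p = 4.59e-09). A second Gabra6 probe set, with forebrain signals at or near the floor, gave a log2 difference of 7.81. Zic1, a zinc finger transcription factor of the granule lineage, read 2942, 2876 and 3004 in cerebellum, next to 154, 137 and 169 in hippocampus and 122, 106 and 119 in cortex (log2 difference 4.47 ± 0.08 (SE), adjusted p = 7.92e-10). Neurod1, a basic helix-loop-helix factor needed for granule neurons to form, read 1067, 1002 and 933 in cerebellum. Its 6 forebrain arrays lay between 50.4 and 60.9 (log2 difference 4.15 ± 0.10 (SE), adjusted p = 4.4e-09). Cbln1 is the protein that granule neurons secrete to hold parallel fibre synapses on Purkinje cells. Its signal was 2105, 2357 and 2364 in cerebellum and 99.6 to 161 in forebrain (log2 difference 4.12 ± 0.086 (SE), adjusted p = 1.44e-09).

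Of 29 granule neuron genes listed, 18 had a probe set and 17 were tested: 12 were higher, 1 lower and 4 did not pass, with a median log2 difference of 1.20. The higher members included Gabrd at 2.67 and, chosen after their values were seen, Pax6 at 2.12 and the layer-organising secreted protein Reln at 1.20. The member that was lower was Nfix at -0.37, which did not pass without animal 3389, and 2 were lower without 3363. Zic2 shows that probe sets can disagree. Its brighter probe set gave 0.31 (adjusted p = 0.479) and the other 4.48 (adjusted p = 4.45e-07).

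Purkinje cell genes were the list with the highest median. Car8, a carbonic anhydrase-related protein that binds the inositol trisphosphate receptor in Purkinje cells, read 2989.8, 2949 and 3177 in cerebellum. In hippocampus it was 29.6, 35.9 and 28.3 and in cortex 46.8, 54.97 and 85.7, so cerebellum exceeded forebrain 70.1-fold (log2 difference 6.13 ± 0.16 (SE), adjusted p = 4.61e-09). Slc1a6, the glutamate transporter of Purkinje cells, read 941, 829 and 914 in cerebellum and 29.9 to 82.6 in forebrain (log2 difference 4.09 ± 0.20 (SE), adjusted p = 2.46e-07). Pcp2, a modulator of G protein signalling named for Purkinje cells, read 1564, 1503 and 1436 in cerebellum. In forebrain it spread from 54.4 to 161 without reaching the cerebellar range (log2 difference 3.97 ± 0.24 (SE), adjusted p = 1.21e-06). Pvalb, the calcium buffer parvalbumin, was measured by probe sets that gave different sizes. The dimmer one gave 3.91 (cerebellum 815, 525 and 543) and the brighter one 2.15, with cerebellum at 3922, 3847 and 3879, hippocampus at 809, 689.6 and 791 and cortex at 917, 1008 and 1099.

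Of 31 Purkinje genes listed, 21 had a probe set and 20 were tested: 16 were higher, 2 lower and 2 did not pass, with a median of 2.07. The T-type calcium channel Cacna1g was among them at 3.76, with 386, 351 and 365 in cerebellum, beside 9.84, 13.4 and 15.05 in hippocampus and 61.1, 51.6 and 62.4 in cortex. Hippocampus was the lowest region for this channel (hippocampus minus cortex -2.21, adjusted p = 0.000136). Other members were chosen after their values were seen. Ebf1, an early B-cell factor of Purkinje subsets, gave 3.29, Inpp5a, an inositol phosphatase, 2.80 and Calb1, the calcium buffer calbindin, 1.99. Ppp1r17, a Purkinje phosphatase inhibitor, gave 2.78 by its brighter probe set and 6.26 by the other. The members that were lower were Dab1, the Reln pathway adaptor, at -0.82 and Stmn4 at -0.55.

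Genes of hindbrain patterning and of cerebellar glia and interneurons were also higher. En2, a homeodomain factor that marks the midbrain-hindbrain territory, read 1304, 1415 and 1554 in cerebellum and 43.05 to 73.5 in forebrain (log2 difference 4.65 ± 0.17 (SE), adjusted p = 3.23e-08). Gdf10, a TGF-beta family ligand of Bergmann glia, read 841, 804 and 779 in cerebellum and 46.4 to 82.5 in forebrain (log2 difference 3.81 ± 0.13 (SE), adjusted p = 2.27e-08). Of 24 genes listed, 16 had a probe set and 13 were tested: 10 were higher, 2 lower and 1 did not pass, with a median of 1.81. Meis1, a homeodomain factor, had all 6 forebrain arrays under the floor and read 81.5, 74.1 and 71.1 in cerebellum, at least 7.97-fold higher. Its relative Meis2 went the other way, with all 3 cerebellum arrays under the floor and at least 3.21-fold lower. It read 4.77 ± 3.37 (SD, n = 3) in cerebellum, 22.5 ± 2.43 in hippocampus and 41.6 ± 7.04 in cortex. Septin4, a septin of Bergmann glia and oligodendrocytes, read 1903, 1767 and 1663 in cerebellum, next to 208, 239.8 and 301 in hippocampus and 424, 274 and 340.1 in cortex (log2 difference 2.62 ± 0.14 (SE), adjusted p = 5.59e-07).

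Genes outside the cerebellar lists stood among the largest differences too. Mybpc3, best known as the cardiac myosin-binding protein C, read 646, 776 and 818 in cerebellum and 28.7 to 64.8 in forebrain (log2 difference 4.04 ± 0.17 (SE), adjusted p = 1.15e-07). Tspan4, a tetraspanin membrane protein, read 666, 587 and 651 in cerebellum and 23.1 to 68.2 in forebrain (log2 difference 3.83 ± 0.23 (SE), adjusted p = 1.14e-06). For 15 called probe sets every forebrain array was under the floor, so only a lower bound, computed against the floor, can be given. Col18a1, a collagen of basement membranes, read 84.1, 115 and 106 in cerebellum by such a probe set, at least 10.6-fold higher. Its brightest probe set, detected in every region, gave 2.14. The same kind of bound held for the tight junction scaffold Patj (at least 8.35-fold), the transcriptional regulator Mdfi (at least 7.84-fold), the adhesion receptor Crtam (at least 7.24-fold) and the cytochrome oxidase isoform Cox6b2 (at least 6.60-fold). For Mdfi and Cox6b2 a further probe set did not pass (0.28 and -0.39).

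**Figure D1:**
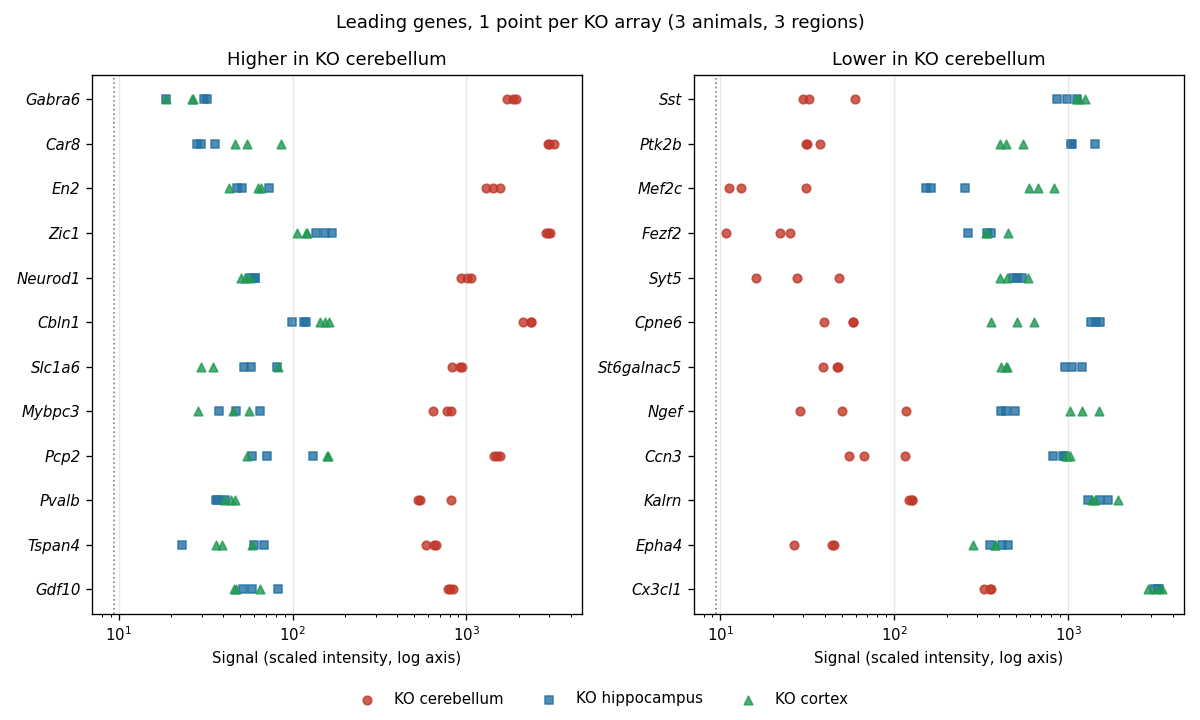
Signal (scaled intensity, log axis) of the 12 genes with the largest log2 difference in each direction, among those with all 9 KO arrays above the floor (dotted line, 9.46) and the cerebellum arrays wholly apart from the forebrain arrays; each point is 1 array. Cerebellum points stand at the far right for Gabra6 to Gdf10 and at the far left for Sst to Cx3cl1.

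Several transcription factors of pyramidal neurons were far lower in KO cerebellum than in forebrain. Tbr1, a T-box factor of early-born cortical neurons, read 3.996, 6.02 and 9.71 in cerebellum, beside 458, 362 and 376 in hippocampus and 1172, 1086 and 1367 in cortex. The cerebellum arrays lay under or at the floor, so cerebellum was at least 72.4-fold lower (adjusted p = 7.92e-10). Mef2c, a MADS-box factor of excitatory neurons, read 31.2, 11.2 and 13.1 in cerebellum, next to 254, 153 and 163 in hippocampus and 828, 674 and 592 in cortex (log2 difference -4.43 ± 0.17 (SE), adjusted p = 5.79e-08). All 4 Mef2c probe sets tested were lower, one by -3.24 and one, with cerebellum under the floor, at least 25.3-fold. Fezf2, which specifies subcortically projecting neurons, read 10.7, 21.95 and 24.98 in cerebellum and 265 to 448 in forebrain (log2 difference -4.25 ± 0.25 (SE), adjusted p = 1.04e-06). Neurod6, a basic helix-loop-helix factor of pyramidal neurons, read 2.62, 9.32 and 13.3 in cerebellum, beside 544, 473 and 527 in hippocampus and 88.8, 86.1 and 121 in cortex (log2 difference -4.40 ± 0.14 (SE), adjusted p = 1.6e-08).

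Of 40 forebrain transcription factors listed, 23 had a probe set and 20 were tested: 14 were lower, 3 higher and 3 did not pass, with a median of -1.72. The 3 that were higher were Eomes, Id2 and Cux1. Eomes, a T-box factor of cortical progenitors that is also known from the unipolar brush cells of the cerebellum, read 82.3, 126 and 177 in cerebellum, next to 12.9, 29.1 and 9.35 in hippocampus and 2.78, 2.07 and 2.08 in cortex (log2 difference 3.35 ± 0.36 (SE), adjusted p = 5.64e-05). Id2 gave 0.83 and Cux1 0.64. The members not past the threshold were Neurod2 (-0.055), Prox1 (0.20) and Nr2f2 (-0.14).

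Signalling genes of forebrain excitatory neurons were lower almost throughout. Nrgn, neurogranin, a postsynaptic calmodulin-binding protein, read 3.82, 5.94 and 5.67 in cerebellum, all under the floor. It read 528, 1159 and 876 in hippocampus and 1539, 1505 and 1050.2 in cortex, at least 110.4-fold above cerebellum. Icam5, the telencephalon-specific adhesion molecule telencephalin, read 17.7, 9.45 and 29.7 in cerebellum and 504 to 877 in forebrain (log2 difference -5.35 ± 0.27 (SE), adjusted p = 3.2e-07). Ptk2b, a calcium-activated tyrosine kinase, read 30.9, 37.4 and 31.3 in cerebellum, beside 1419, 1030.3 and 1053 in hippocampus and 548, 436 and 407 in cortex (log2 difference -4.46 ± 0.12 (SE), adjusted p = 5.81e-09). Crym, a thyroid hormone-binding crystallin, was under the floor in all 3 cerebellum arrays and at least 32.2-fold lower there. Camk2a, the alpha subunit of calcium/calmodulin-dependent kinase II, was likewise at least 18.9-fold lower, and by its other probe set at least 17.2-fold.

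Of 48 such genes listed, 33 had a probe set and 32 were tested: 28 were lower, 1 higher and 3 did not pass, with a median of -1.45. The higher one was Nptx1, a neuronal pentraxin (0.36, adjusted p = 0.0415), at 520.0 ± 54.1 (SD, n = 3) in cerebellum, 515 ± 74.8 in hippocampus and 325 ± 72.98 in cortex. Its cerebellum and hippocampus arrays overlapped, and no member was higher without animal 3363 or without 3389. The cannabinoid receptor Cnr1 did not pass at 1.01 (adjusted p = 0.0705). Kalrn, a signalling protein of dendritic spines, read 127, 121 and 126 in cerebellum and 1299 to 1942 in forebrain (log2 difference -3.62 ± 0.093 (SE), adjusted p = 4.4e-09). Cpne6, a calcium-dependent phospholipid-binding copine, read 57.7, 57.5 and 39.5 in cerebellum, next to 1444, 1527 and 1346 in hippocampus and 638, 362 and 504 in cortex (log2 difference -4.04 ± 0.16 (SE), adjusted p = 5.94e-08). Cx3cl1, the neuronal chemokine fractalkine, was bright in every array yet apart, with 353, 328 and 360.0 in cerebellum and 2868 to 3439 in forebrain (log2 difference -3.21 ± 0.074 (SE), adjusted p = 2.64e-09).

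The genes lower in cerebellum did not share 1 forebrain pattern. Among called probe sets that were lower, 195 were higher in hippocampus than in cortex and 192 higher in cortex than in hippocampus. Hippocampus against cortex called 1254 of 8382 probe sets (15.0%), 7.02% higher in hippocampus and 7.95% higher in cortex. Of 31 neocortical layer and area genes listed, 22 had a probe set and 19 were tested, with 15 lower, 2 higher (Nefh at 0.50 and Cux1, given above) and 2 not past the threshold, and a median of -1.65. Rgs4, a regulator of G protein signalling, was under the floor in cerebellum (8.53, 5.25 and 3.38). It read 130.0, 102 and 113 in hippocampus and 251, 272 and 359.9 in cortex, at least 19.3-fold above cerebellum. Of 28 hippocampal subfield genes listed, 17 had a probe set and 15 were tested: 8 were lower, 5 higher and 2 did not pass, with a median of -0.75. St6galnac5, a sialyltransferase, read 38.8, 47.2 and 47.1 in cerebellum, beside 1198, 1052 and 956 in hippocampus and 446, 412 and 439.5 in cortex (log2 difference -3.94 ± 0.11 (SE), adjusted p = 6.4e-09). The 5 that were higher were Tdo2 at 2.50, Calb1 at 1.99, Kcnk1 at 1.70, Map4 at 0.49 and Nptx1, given above. For Tdo2, tryptophan dioxygenase, a second probe set did not pass (0.13), and the probe sets of Map4, a microtubule-associated protein, were called in opposite directions.

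Other leading forebrain genes were Syt5, a synaptotagmin (16.01, 27.4 and 47.8 in cerebellum, 404 to 586 in forebrain), and Ngef, a signalling protein that binds Eph receptors (50.2, 28.7 and 117 in cerebellum, 410.5 to 1496 in forebrain). Their log2 differences were -4.16 (adjusted p = 1.53e-06) and -3.74 (adjusted p = 1.29e-05). Ccn3, a matricellular protein, read 55.2, 115 and 66.8 in cerebellum and 821 to 1024 in forebrain (log2 difference -3.65 ± 0.17 (SE), adjusted p = 1.66e-07). Lpl, lipoprotein lipase, was under the floor in cerebellum by 1 probe set and at least 7.04-fold lower. Its other probe set gave -3.38, and hippocampus was the brighter forebrain region by both.

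The promoters of 4 genes, 2 higher and 2 lower in KO cerebellum, are shown as examples of the cell classes described here. Each is the RefSeq sequence of the 250 bases before the transcription start in build GRCm38.p6, read 5′ to 3′ on the gene's strand. Capitals mark 3 motifs searched on both strands: CAGATG, an E-box bound by neurogenic basic helix-loop-helix factors; AGGTCA, a core sequence bound by nuclear receptors such as Rora; and TGACGTCA, the cAMP response element. The Purkinje gene Pcp2 lies on the minus strand at chr8:3625548-3625797, the Bergmann glia and oligodendrocyte gene Septin4 on the plus strand at chr11:87566439-87566688, the pyramidal neuron gene Nrgn on the minus strand at chr9:37552746-37552995 and the interneuron peptide gene Sst on the minus strand at chr16:23890845-23891094.
Pcp2: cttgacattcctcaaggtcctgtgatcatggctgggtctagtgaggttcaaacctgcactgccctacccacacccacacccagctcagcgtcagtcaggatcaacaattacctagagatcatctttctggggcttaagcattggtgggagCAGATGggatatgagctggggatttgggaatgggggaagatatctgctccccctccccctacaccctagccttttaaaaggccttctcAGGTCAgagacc
Septin4: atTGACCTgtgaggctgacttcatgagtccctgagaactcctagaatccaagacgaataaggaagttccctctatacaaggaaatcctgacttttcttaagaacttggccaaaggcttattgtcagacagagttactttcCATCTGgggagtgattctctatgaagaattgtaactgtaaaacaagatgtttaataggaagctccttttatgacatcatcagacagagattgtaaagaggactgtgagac
Nrgn: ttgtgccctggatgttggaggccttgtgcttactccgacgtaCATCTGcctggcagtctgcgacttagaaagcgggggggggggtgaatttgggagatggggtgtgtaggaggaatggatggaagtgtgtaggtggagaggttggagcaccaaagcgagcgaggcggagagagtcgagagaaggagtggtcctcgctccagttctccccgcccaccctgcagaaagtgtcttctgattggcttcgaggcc
Sst: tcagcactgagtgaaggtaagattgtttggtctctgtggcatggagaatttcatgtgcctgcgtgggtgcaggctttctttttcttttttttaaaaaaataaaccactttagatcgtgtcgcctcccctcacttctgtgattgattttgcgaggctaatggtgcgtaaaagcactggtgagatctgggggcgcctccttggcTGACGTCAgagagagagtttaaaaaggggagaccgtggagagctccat
Pcp2 and Septin4 hold both an E-box and AGGTCA, Nrgn an E-box and Sst a cAMP response element. These genes were picked by hand and each holds a motif, so they do not show how common a motif is in a cell class. Over all genes with a promoter in the table, AGGTCA was in 10 of 65 promoters (15.4%) of genes higher in KO cerebellum by at least 2 log2 units and in 3 of 62 (4.84%) of genes lower by as much, against 10.6% of 5031 tested genes. CAGATG was in 9.23%, 14.5% and 10.1% of these sets, and TGACGTCA in 3.08%, 4.84% and 2.64%. Over all 27025 promoters the shares were 13.8% for AGGTCA, 14.5% for CAGATG and 1.60% for TGACGTCA. None of the motifs holds another, and these shares are descriptions of the windows, with no test.

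**Figure D2:**
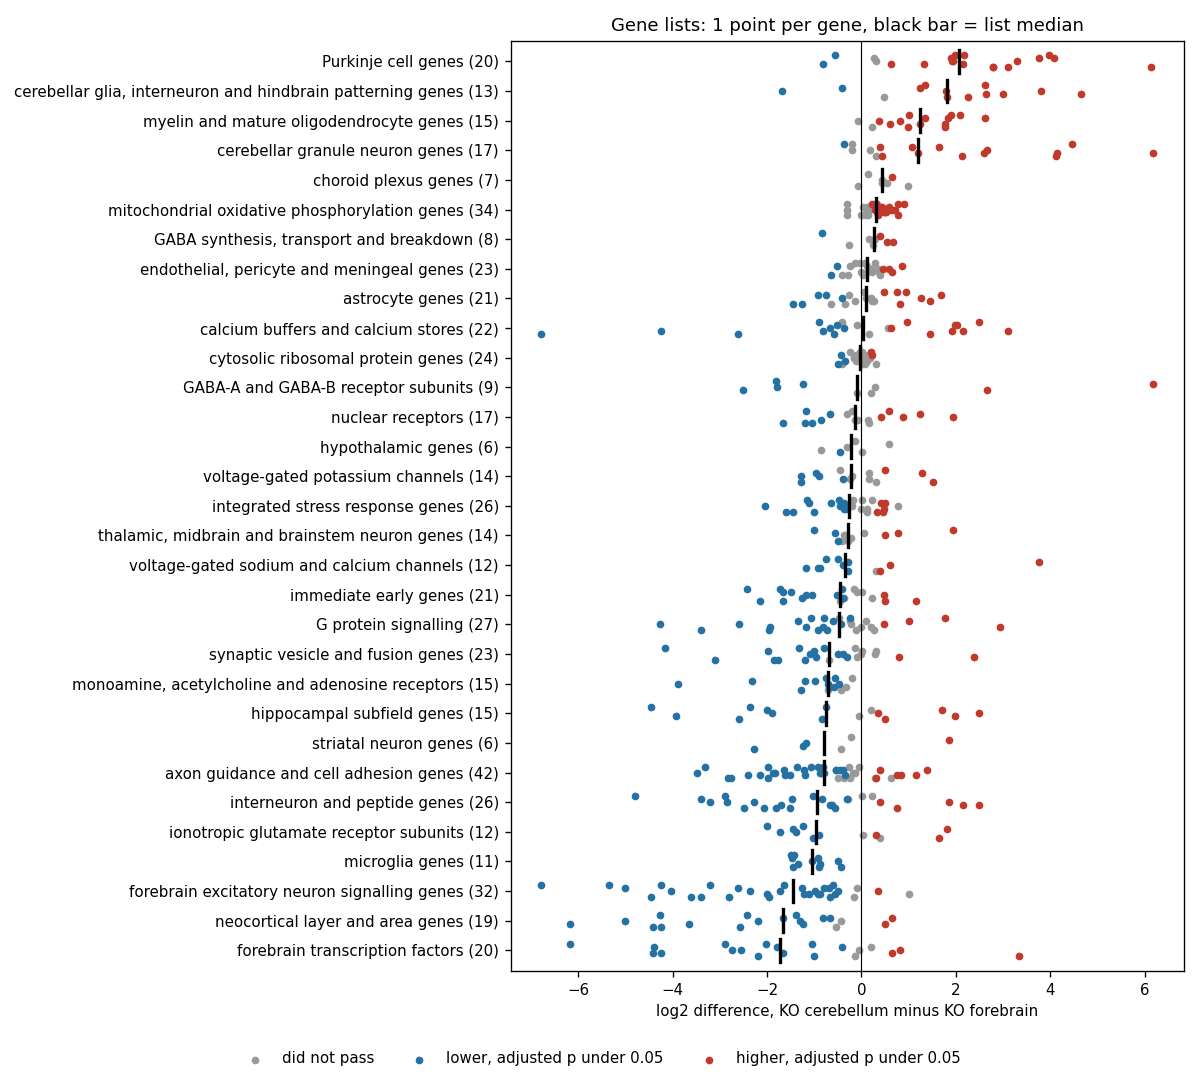
log2 difference (KO cerebellum minus KO forebrain) of each tested gene, 1 point per gene by its brightest probe set, for the lists with at least 5 tested genes (number in brackets), with signals under the floor raised to it; red and blue points passed at an adjusted p under 0.05 and black bars are list medians. Purkinje genes sit furthest right with a median of 2.07 and forebrain transcription factors furthest left with a median of -1.72, and nearly every list holds members on both sides.

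Receptors for GABA, the transmitter whose breakdown Aldh5a1 serves, differed by subunit. GABA-A receptors are pentamers of mostly alpha, beta and gamma or delta subunits, and the granule neuron combines alpha 6 with delta. Gabrd, the delta subunit of extrasynaptic receptors, read 302, 305 and 358 in cerebellum, next to 22.2, 22.7 and 30.2 in hippocampus and 82.99, 118 and 109 in cortex (log2 difference 2.67 ± 0.14 (SE), adjusted p = 3.82e-07). Gabrd and Gabra6, given above, were the 2 members that were higher. Those lower were Gabra2 at -2.51, Gabrb1 at -1.81, Gabra3 at -1.78 and Gabrg3 at -1.24. Gabra2 read 25.2, 73.2 and 54.6 in cerebellum, beside 430.5, 404 and 307 in hippocampus and 173, 167 and 221 in cortex. Gabrb1 read 212, 189 and 189 in cerebellum and 596 to 786 in forebrain. Gabrb2 (-0.084), Gabrg1 (0.29) and the GABA-B subunit Gabbr1 (0.20) did not pass, and Gabbr1 did pass as higher under quantile normalization and median scaling. Of 20 subunits listed, 11 had a probe set and 9 were tested. The list's median was -0.084, 0.019 under median scaling and 0.0013 without animal 3363.

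The 8 genes tested from a list of GABA synthesis, transport and breakdown differed little by comparison. They were mostly genes of synthesis and transport, and Aldh5a1 itself was not among them, so breakdown is hardly covered. Slc32a1, the vesicular GABA transporter, read 1283, 1127 and 1379 in cerebellum and 713 to 859 in forebrain (log2 difference 0.67 ± 0.08 (SE), adjusted p = 0.000118). Gad1, the larger glutamate decarboxylase, read 2064, 1771 and 1771 in cerebellum and 1258 to 1605 in forebrain (log2 difference 0.40 ± 0.074 (SE), adjusted p = 0.00174). Gad2, the smaller one, was lower at 54.6, 37.1 and 29.1 against 60.5 to 87.5 (log2 difference -0.85 ± 0.20 (SE), adjusted p = 0.00767), and did not pass without animal 3389 or without animal 3403. Aldh9a1, an aldehyde dehydrogenase that makes GABA from a putrescine derivative, was higher (log2 difference 0.55 ± 0.12 (SE), adjusted p = 0.00457). The glutamine synthetase Glul (-0.26 by its brighter probe set, -0.62 and past the threshold by the other), the GABA transporter Slc6a13 (0.28), the aldehyde reductase Akr7a5 (0.24) and D2hgdh (0.16) did not pass by their brightest probe sets. In all, 3 of 8 tested genes were higher and 1 lower of 18 listed, 9 with a probe set; under median scaling 5 were higher. Without animal 3363, 2 were lower, and without 3389 or 3403 none was.

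**Figure D3:**
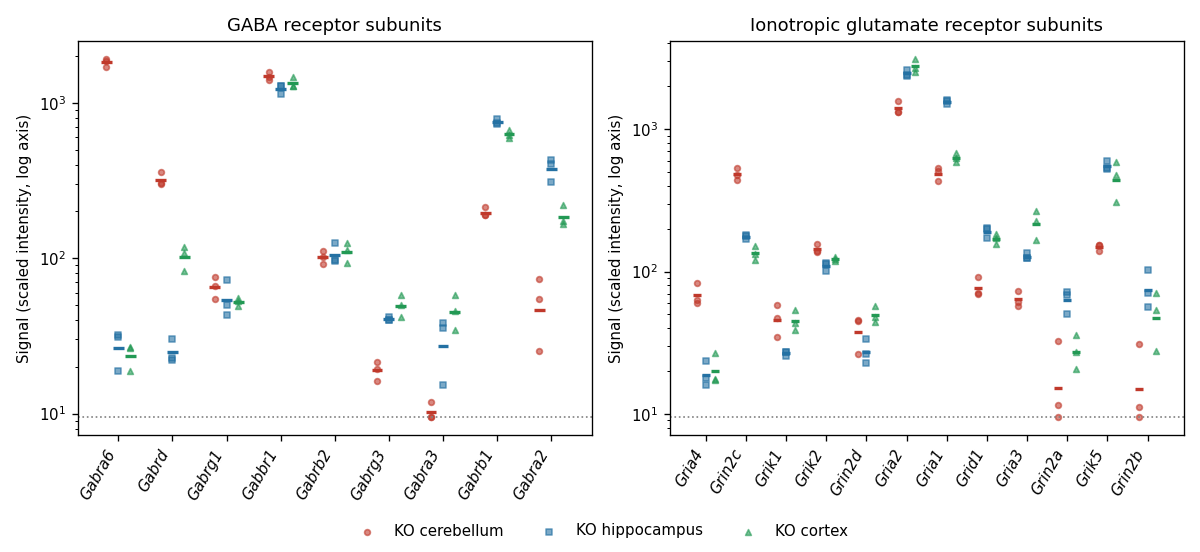
Signal (scaled intensity, log axis) of every tested GABA receptor subunit and ionotropic glutamate receptor subunit on the 9 KO arrays, ordered by log2 difference; points are arrays, short bars are means of the log2 values, and values under the floor are drawn at it (dotted line). Gabra6 and Gabrd are higher in cerebellum and Gabrg3 to Gabra2 lower; among glutamate subunits Gria4 and Grin2c stand above the forebrain arrays and Gria2 to Grin2b mostly below.

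Ionotropic glutamate receptor subunits were lower more often than higher. Of 18 listed, 12 had a probe set and all 12 were tested: 7 were lower, 3 higher and 2 did not pass, with a median of -0.96. Grin2c, the NMDA receptor subunit that mature granule neurons use, read 478, 439 and 531 in cerebellum, next to 170.3, 181 and 177 in hippocampus and 134, 151 and 121 in cortex (log2 difference 1.64 ± 0.11 (SE), adjusted p = 1.95e-06). Gria4, an AMPA receptor subunit of cerebellar neurons and glia, read 63.2, 83.7 and 60.6 in cerebellum and 15.8 to 26.6 in forebrain (log2 difference 1.82 ± 0.25 (SE), adjusted p = 0.000298). The kainate subunit Grik2 was slightly higher (0.32) and lost its call when any 1 animal was left out. Grin2b, the NMDA subunit typical of forebrain, read 11.2, 30.98 and 6.84 in cerebellum and 27.7 to 103 in forebrain (log2 difference -1.99 ± 0.30 (SE), adjusted p = 0.000552), so that 1 cerebellum array overlapped the cortex values. Grin2a was lower at -1.44 and did not pass without animal 3389.

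The AMPA subunits differed in which forebrain region was brighter. Gria1 read 429.9, 530.2 and 507 in cerebellum, beside 1502, 1609 and 1581 in hippocampus and 626, 675 and 584 in cortex (log2 difference -1.02 ± 0.076 (SE), adjusted p = 4.74e-06), with hippocampus above cortex by 1.32 (adjusted p = 4.12e-05). Gria2 was lower by each of its 3 probe sets, from -0.64 to -1.22. Gria3 gave -1.38, the kainate subunit Grik5 -1.73 (-0.26 and not past the threshold by its other probe set) and the orphan delta subunit Grid1 -1.23. Grik1 (0.40) and Grin2d (0.043) did not pass. Of 7 metabotropic receptors listed, Grm8 alone was tested and did not pass (-0.42, adjusted p = 0.0805).

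Voltage-gated channels went both ways. Of 14 potassium channel genes tested (32 listed, 17 with a probe set), 3 were higher, 5 lower and 6 did not pass. Kcna1, a Shaker channel of cerebellar basket cell terminals, read 567, 677 and 758 in cerebellum and 187 to 291 in forebrain (log2 difference 1.52 ± 0.14 (SE), adjusted p = 1.94e-05), and Kcnd2, the A-type channel of granule neurons, gave 1.29. The beta subunit Kcnab2 and Kcna3 were lower, at -1.28 and -1.28. Of 12 sodium, calcium and pacemaker channel genes tested (29 listed, 15 with a probe set), 3 were higher, led by Cacna1g, and 8 lower. Those lower included the sodium channel Scn8a (-1.17), the N-type calcium channel Cacna1b (-0.93) and its partner Cacnb2 (-0.88). Without animal 3363, 4 of the 12 were lower, and without 3389, 5, while under median scaling 5 were. Cacna1a, the P/Q-type channel of Purkinje cells, did not pass (0.32, adjusted p = 0.29).

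Calcium-handling genes split evenly by count in the main fit, with 9 of 22 tested higher and 9 lower (33 listed, 24 with a probe set). Under median scaling 11 were higher and 7 lower, and under quantile normalization 10 and 8. With 1 animal left out 9 were higher and 6 or 7 lower. Their median was 0.032, and -0.0049 under quantile normalization. The members were different kinds of protein. Atp2a3, a calcium pump of the endoplasmic reticulum, read 904, 665 and 829.7 in cerebellum and 51.2 to 119 in forebrain (log2 difference 3.11 ± 0.19 (SE), adjusted p = 1.45e-06). Calb2, calretinin, read 1761, 1515 and 1650.3 in cerebellum, next to 479, 443 and 509 in hippocampus and 220.5, 166 and 159.7 in cortex (log2 difference 2.49 ± 0.093 (SE), adjusted p = 4.75e-08). On the lower side, after Nrgn and Camk2a, stood Hpca, the calcium sensor hippocalcin, at 375, 337 and 303 in cerebellum, beside 3197, 3254 and 3026 in hippocampus and 1404, 1347 and 1262 in cortex (log2 difference -2.61 ± 0.066 (SE), adjusted p = 4.4e-09). Kinase subunits divided as well: Camk2d gave 2.02 and Camk2b -0.66.

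Neuropeptides and interneuron genes were mostly lower in cerebellum. Sst, somatostatin, read 30.02, 32.1 and 59.5 in cerebellum, next to 979, 864 and 1116 in hippocampus and 1241, 1158 and 1108 in cortex, 27.7-fold lower (log2 difference -4.79 ± 0.16 (SE), adjusted p = 2.27e-08). Of 36 genes listed, 31 had a probe set and 26 were tested: 18 were lower, 5 higher and 3 did not pass, with a median of -0.93. The tachykinin Tac2 read 6.23, 10.5 and 6.04 in cerebellum and 60.4 to 156 in forebrain (log2 difference -3.40 ± 0.20 (SE), adjusted p = 9.01e-07). Npy1r, a neuropeptide Y receptor, was under the floor in cerebellum and at least 9.31-fold lower. Lhx6, the factor that specifies many forebrain interneurons, gave -2.89. Cholecystokinin (Cck, -2.85), vasoactive intestinal peptide (Vip, -2.06) and neuropeptide Y (Npy, -1.71), chosen after their values were seen, were lower too.

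The 5 that were higher were Calb2, the stress hormone receptor Crhr1, Penk, Nos1 and Gad1. Penk, proenkephalin, read 1744, 1378 and 1516 in cerebellum, beside 339, 314 and 320.1 in hippocampus and 560.3, 549 and 565 in cortex (log2 difference 1.85 ± 0.075 (SE), adjusted p = 7.64e-08). Crhr1 read 267, 302 and 373 in cerebellum, next to 25.1, 35.9 and 41.00 in hippocampus and 154, 154 and 134 in cortex (log2 difference 2.15 ± 0.15 (SE), adjusted p = 3.59e-06). Hippocampus was the lowest region for both.

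Receptors for monoamines, acetylcholine and adenosine were lower or did not pass. Of 35 listed, 19 had a probe set and 15 were tested: 11 were lower, 0 higher and 4 did not pass, with a median of -0.70. Without animal 3363, 6 were lower, and without 3403, 6. Chrm1, the M1 muscarinic receptor, read 8.21, 19.9 and 21.9 in cerebellum, beside 264, 359 and 279.9 in hippocampus and 220.2, 196 and 150.5 in cortex (log2 difference -3.88 ± 0.24 (SE), adjusted p = 1.28e-06). Htr1a, a serotonin receptor, read 10.9, 11.7 and 13.6 in cerebellum and 52.2 to 78.4 in forebrain (log2 difference -2.33 ± 0.21 (SE), adjusted p = 2.05e-05). Chrm4, under the floor in all 3 cerebellum arrays, lost its call without any 1 of the 3 animals and Htr3a (-1.29) without 3363 or without 3403.

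G protein signalling genes downstream of such receptors included regulators on opposite sides. Rgs8, a regulator of G protein signalling of Purkinje cells, read 1691, 1495 and 1476 in cerebellum and 172 to 229.7 in forebrain (log2 difference 2.94 ± 0.099 (SE), adjusted p = 2.27e-08). Rgs4, given above, and Rgs14, a regulator of hippocampal area CA2, were lower. Rgs14 read 88.1, 101 and 93.2 in cerebellum, next to 947, 683 and 706 in hippocampus and 496, 427 and 358 in cortex (log2 difference -2.60 ± 0.12 (SE), adjusted p = 1.51e-07). Of 27 genes tested (43 listed, 30 with a probe set), 4 were higher, 15 lower and 8 did not pass, with a median of -0.49. The calcium-activated phosphodiesterase Pde1a was among those lower (-3.39), while Pde9a, chosen after its value was seen, was higher (1.77).

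Among 17 nuclear receptors tested (34 listed, 26 with a probe set), 5 were higher and 6 lower. Rora, the orphan receptor needed for Purkinje cell survival and mutated in staggerer mice, read 334, 318 and 325 in cerebellum, beside 59.3, 75.3 and 54.2 in hippocampus and 113, 117 and 119 in cortex (log2 difference 1.94 ± 0.12 (SE), adjusted p = 1.45e-06). The immediate early receptor Nr4a2 (-1.65) and the thyroid hormone receptor Thra (-1.19) were lower. Nr1h3 (1.25, adjusted p = 0.0482) lost its call without any 1 animal. Without animal 3363 or 3389, 3 were higher, and without 3403, 2 were higher and 3 lower.

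Axon guidance and adhesion genes were lower in large number. Of 42 tested (63 listed, 49 with a probe set), 27 were lower, 6 higher and 9 did not pass, with a median of -0.80. Cdh13, a cadherin without a transmembrane segment, read 5.41, 2.74 and 11.2 in cerebellum and 88.02 to 200.3 in forebrain (log2 difference -3.48 ± 0.23 (SE), adjusted p = 2.17e-06). Epha4, an Eph receptor tyrosine kinase, read 44.8, 43.96 and 26.5 in cerebellum and 284 to 451 in forebrain (log2 difference -3.32 ± 0.16 (SE), adjusted p = 2.77e-07). Epha5 (-2.83) and Ephb6 (-2.77) were lower with it. The largest on the higher side, chosen after their values were seen, were Epha8 (1.39), the guidance cue Ntn1 (1.17) and its repulsive receptor Unc5c (0.84).

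Synaptic vesicle and fusion genes were lower in 14 of 23 tested cases, higher in 2 and not past the threshold in 7 (40 listed, 25 with a probe set), with a median of -0.69. Synaptotagmins, the calcium sensors of release, were on both sides. Syt2, the fast calcium sensor of hindbrain synapses, read 1031, 828 and 1122 in cerebellum, next to 146, 133 and 173 in hippocampus and 249, 244 and 228 in cortex (log2 difference 2.38 ± 0.10 (SE), adjusted p = 1.15e-07). Syt5 was lower, as given above, and Syt1, the forebrain counterpart of Syt2, gave -1.32. Vamp1 (0.80) was higher and Vamp2 (-0.50) lower. Stx1a, the plasma membrane fusion protein syntaxin 1A, read 63.9, 89.5 and 85.6 in cerebellum, beside 358, 412 and 395 in hippocampus and 1229, 1229 and 1067 in cortex (log2 difference -3.10 ± 0.11 (SE), adjusted p = 2.55e-08). Cortex was the brightest region for it (hippocampus minus cortex -1.60, adjusted p = 7.94e-05). Snap25 (-0.14) did not pass.

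Immediate early genes, which follow recent neuronal activity, were lower in 12 of 21 tested cases, higher in 3 and not past the threshold in 6 (26 listed, 21 with a probe set), with a median of -0.45. Egr1, a zinc finger factor, read 189.7, 105 and 76.8 in cerebellum, next to 477, 435 and 473 in hippocampus and 763, 787 and 938 in cortex (log2 difference -2.42 ± 0.21 (SE), adjusted p = 1.24e-05). The cyclooxygenase Ptgs2 was under the floor in cerebellum and at least 3.18-fold lower. The cerebellum array of animal 3363 stood apart for several of these genes. Fos read 1025, 182 and 183 in cerebellum, Ier2 393, 136 and 209 and Dusp1 1242, 424 and 336, each highest in 3363. Fos did not pass over the 3 animals (0.21, adjusted p = 0.633) and was lower without 3363 (-0.52, adjusted p = 0.0152). Dusp1 was higher over the 3 animals (0.47) and did not pass without 3363 (0.16, adjusted p = 0.387). Without 3363, 1 of the 21 genes, Ier2, remained higher (0.94, adjusted p = 0.00482) and 11 were lower, with a list median of -0.63. Without 3389, 1 was higher. The list's median in Wt was -1.12, and none of its members passed the test of the difference between genotypes.

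Integrated stress response genes, which cells switch on when translation is restrained, were lower in 12 of 26 tested cases, higher in 5 and not past the threshold in 9 (33 listed, 29 with a probe set). Nupr1, a stress-induced transcriptional regulator, read 95.4, 68.1 and 38.2 in cerebellum and 196 to 338 in forebrain (log2 difference -2.05 ± 0.26 (SE), adjusted p = 0.000166). Its mean in Wt was 50.1 in cerebellum, 30.7 in hippocampus and 102 in cortex, against KO means of 67.2, 244 and 288. In Wt its cerebellum mean thus lay between those of the forebrain regions. Slc7a3, a cationic amino acid transporter, gave -1.60 and Cebpb, a bZIP factor, -1.45. Atf4, the central factor of the response, was higher (0.42, adjusted p = 0.0142). The list's median was -0.26 in KO and 0.071 in Wt, and none of its members passed the test of the difference between genotypes. Without animal 3389 or without 3403, 7 were lower, and without 3363 or without 3389, 2 were higher.

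Oligodendrocyte genes were higher in KO cerebellum than in KO forebrain. Of 27 myelin and mature oligodendrocyte genes listed, 17 had a probe set and 15 were tested: 13 were higher, 0 lower and 2 did not pass. The list's median was 1.25 in KO and 0.32 in Wt. Mog, a myelin surface protein, read 586, 577 and 519 in cerebellum, beside 233, 121 and 168 in hippocampus and 145, 105 and 71.6 in cortex (log2 difference 2.09 ± 0.17 (SE), adjusted p = 9.67e-06). Gsn, the actin-severing protein gelsolin, read 554, 518 and 657 in cerebellum and 87.1 to 218 in forebrain (log2 difference 1.89 ± 0.23 (SE), adjusted p = 0.000135), and Gjb1, a gap junction protein, gave 1.84. In Wt, mean Gsn signal was 864 in cerebellum, 642 in hippocampus and 502 in cortex. Mbp, the major myelin basic protein, differed by 0.37, with 2579, 2691 and 2769 in cerebellum, next to 2311, 2046 and 2514 in hippocampus and 2013, 1797 and 1868 in cortex. Its probe sets were called in opposite directions, as were those of Mag, a further myelin gene. Qk (-0.07) and Ndrg1 (0.23) did not pass.

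Microglia genes were lower without exception among those tested. Of 21 listed, 18 had a probe set and 11 were tested, and all 11 were lower, with a median of -1.04. Csf1r, the receptor that microglia need to survive, read 123, 119 and 143 in cerebellum, beside 325, 319.9 and 400.4 in hippocampus and 255, 416 and 379 in cortex (log2 difference -1.43 ± 0.13 (SE), adjusted p = 1.61e-05). Cd68, a lysosomal protein, read 66.2, 63.5 and 51.3 in cerebellum and 143 to 183 in forebrain (log2 difference -1.47 ± 0.14 (SE), adjusted p = 2.11e-05). Tyrobp, an immune adaptor, read 65.9, 43.6 and 62.5 in cerebellum and 84.3 to 213 in forebrain (log2 difference -1.45 ± 0.23 (SE), adjusted p = 0.000675). With any 1 animal left out, 10 of the 11 were lower.

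Astrocyte genes divided by gene. Of 21 tested (28 listed, 22 with a probe set), 7 were higher, 5 lower and 9 did not pass, with a median of 0.10; under median scaling and under quantile normalization 10 were higher and 4 lower. Aqp4, the water channel of astrocyte endfeet, read 950.0, 1311 and 1249 in cerebellum, next to 383, 768 and 893 in hippocampus and 250.3, 398 and 482 in cortex (log2 difference 1.26 ± 0.12 (SE), adjusted p = 2.32e-05). S100b, a calcium-binding protein of astrocytes and Bergmann glia, gave 1.46 and the bicarbonate transporter Slc4a4 1.69. Gfap, the intermediate filament of fibrous and reactive astrocytes, read 161, 194 and 161 in cerebellum, beside 395, 785 and 654 in hippocampus and 222, 341 and 312 in cortex (log2 difference -1.26 ± 0.12 (SE), adjusted p = 3.04e-05). Hippocampus was its brightest region (hippocampus minus cortex 1.03, adjusted p = 0.00157). Ntsr2, a neurotensin receptor of astrocytes, was lower (-1.44).

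**Figure D4:**
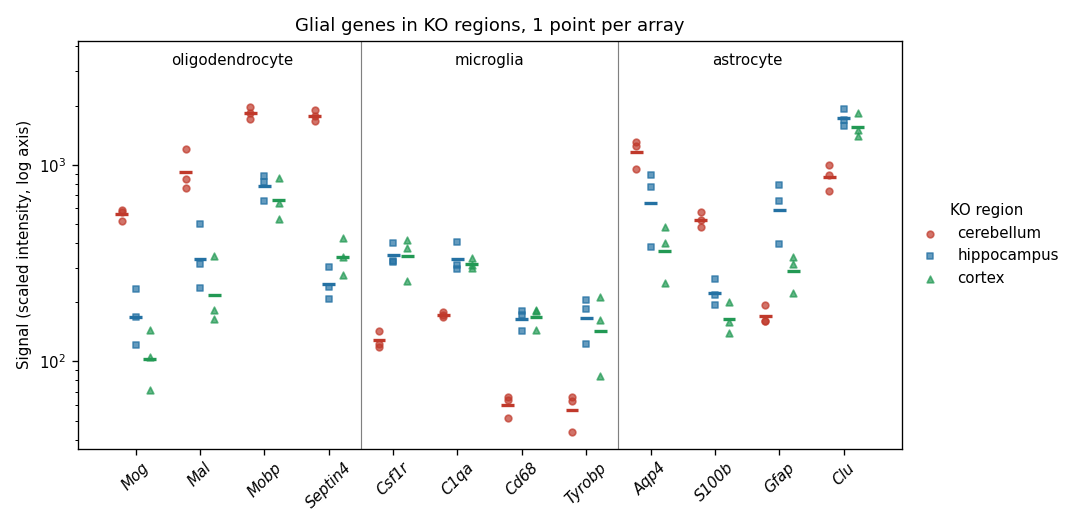
Signal (scaled intensity, log axis) of 4 oligodendrocyte, 4 microglia and 4 astrocyte genes on the 9 KO arrays; points are arrays and short bars are means of the log2 values. Cerebellum points are above both forebrain regions for Mog, Mal, Mobp, Septin4, Aqp4 and S100b and below for Csf1r, C1qa, Cd68, Tyrobp, Gfap and Clu.

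Genes of vessels, choroid plexus and hypothalamus mostly did not pass, where 47.2% of all 6249 genes did. Among thalamic, midbrain and brainstem genes the share that passed was near this, and among the 6 striatal genes above it. Of 7 choroid plexus genes tested, 1 was higher (Igf2, 0.65, which did not pass without animal 3363 or without 3389) and 6 did not pass; 3 were higher without 3389. Ttr, the transthyretin of choroid plexus, varied widely inside each region, with 971, 266 and 1237 in cerebellum, next to 341, 1228 and 1907 in hippocampus and 80.3, 524 and 333 in cortex. The summed signal of the 8 listed genes with a probe set, tested or not, was 2381 to 3167 in cerebellum, 1202 to 4234 in hippocampus and 1016 to 2106 in cortex. The median of the 7 tested was 0.45 in KO and -0.85 in Wt. Of 23 endothelial, pericyte and meningeal genes tested, 4 were higher and 2 lower, with Cldn5, the tight junction protein of brain vessels, at 0.85. Without animal 3389, 1 was higher and 3 lower, without 3403 2 were higher, and under median scaling 6. The summed signal of the 24 listed vessel and meningeal genes with a probe set was 7058 to 7195 in cerebellum, 4618 to 8416 in hippocampus and 5050.0 to 6167 in cortex. Of 14 thalamic, midbrain and brainstem genes 3 were higher and 3 lower, with 8 not past the threshold, and 1 was lower under median scaling. Of 6 hypothalamic genes 1 was lower (Gal, -0.44, which did not pass without animal 3363 or without 3403). Of 6 striatal genes Penk, given above, was higher and 3 were lower, and the dopamine receptor Drd2 did not pass (-0.43). The part of such tissue in the results was not tested.

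Mitochondrial genes were higher by small amounts. Of 34 tested genes of mitochondrial oxidative phosphorylation (44 listed, 37 with a probe set), 19 were higher, 0 lower and 15 did not pass, with a median of 0.31. Under median scaling 24 were higher, under quantile normalization 21, and with 1 animal left out 15 to 18. The median of this list in Wt was 0.155. Atp5o, a subunit of ATP synthase, read 1618, 1634 and 1733 in cerebellum and 799 to 1062 in forebrain (log2 difference 0.90 ± 0.068 (SE), adjusted p = 5.22e-06), and Uqcrh, a subunit of complex III, gave 0.70. For Cox4i1 and Cyc1 of this list, probe sets were called in opposite directions. Of 24 cytosolic ribosomal protein genes tested (73 listed, 30 with a probe set), 2 were higher, 3 lower and 19 did not pass, with a median of -0.02 that was 0.084 under median scaling. With animal 3363 or 3389 left out none was higher, and under median scaling 5 were. RNA integrity was read from control probe sets at both ends of a transcript. The Gapdh 3′ to 5′ signal ratio was 0.821 ± 0.0245 (SD, n = 3) in KO cerebellum, 0.844 ± 0.0547 in hippocampus and 0.804 ± 0.00773 in cortex. The actin ratio was 1.36 ± 0.0259 in cerebellum, 1.33 ± 0.0665 in hippocampus and 1.77 ± 0.124 in cortex. The part of RNA quality in the results was not tested.

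A few genes placed cerebellum between the forebrain regions. With both differences passing, 27 probe sets were lower than cortex and higher than hippocampus, and 8 the reverse. The 3 with the widest gaps on both sides were Meg3, an imprinted non-coding RNA, Amy1, an amylase, and Kcnh1, a potassium channel. Meg3 read 592.9 ± 287 (SD, n = 3) in cerebellum, beside 106 ± 72.1 in hippocampus and 1782 ± 498 in cortex. Its log2 difference was 2.72 from hippocampus (adjusted p = 0.00196) and -1.70 from cortex (adjusted p = 0.0216). In the reverse order, Acta2, the smooth muscle actin of vessel walls, read 71.6 ± 17.4 in cerebellum, next to 134 ± 48.2 in hippocampus and 34.5 ± 11.3 in cortex.

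Likeness of profile over the 9 KO arrays was measured by Pearson r on log2 signal. The 6 genes closest to Gabra6 were 4833439L19Rik, Wnt7a, En2, Sycp1, Gdf10 and Ptprr, with r of 0.995 to 0.997. They differ in size: 4833439L19Rik was higher by 0.51 and Ptprr, a receptor tyrosine phosphatase, by 1.59, against 4.65 for En2. Wnt7a, a secreted Wnt ligand, had all 6 forebrain arrays under the floor and was at least 5.32-fold higher. The 6 genes closest to Tbr1 were Rgs4, Ptpn5, Lmo4, Nrsn1, Matk and Prkar1b, with r of 0.991 to 0.998. Each was lower, with -1.36 for Prkar1b, a protein kinase A regulatory subunit, -1.79 for Ptpn5, a tyrosine phosphatase, and the at-least fold given above for Rgs4. The points share their 3 animals, so r is a description.

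The same contrast in the 3 Wt animals, which share no array with the KO ones, called 1385 probe sets higher (16.5%) and 1691 lower (20.2%), which is 36.7% of 8382. Of the KO calls, 2369 were also called in Wt in the same direction, which is 61.3% of the KO calls and 77.0% of the Wt calls, and 6 were called in opposite directions. Sign agreed for 3692 of the 3865 KO calls (95.5%). Of 978 KO calls of at least 1 log2 unit, 833 were called in Wt in the same direction. Among leading genes above the floor, Gabra6 gave 6.18 in KO and 6.98 in Wt, Car8 6.13 and 6.05, Sst -4.79 and -4.25 and Ptk2b -4.46 and -4.36. None of these 4 passed the test of the difference between genotypes (adjusted p from 0.408 for Gabra6 to 0.961 for Car8). Across probe sets the KO and Wt log2 differences correlated with r = 0.894, given as a description.

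The test of the difference between genotypes called 5 probe sets of 8382 (0.0597%), 3 with a higher (0.0358%) and 2 with a lower value in KO (0.0239%), and 882 at an unadjusted p under 0.05 (10.5%). They belong to 4 genes. Mal, a myelin proteolipid, was higher in KO cerebellum by 1.77 and in Wt by 0.23 (difference 1.54 ± 0.21 (SE), adjusted p = 0.01). In KO it read 1203, 758 and 850.0 in cerebellum, beside 501, 236 and 313 in hippocampus and 346, 164 and 183 in cortex. Mobp, a further myelin protein, gave 1.35 in KO and 0.022 in Wt (difference 1.33 ± 0.18, adjusted p = 0.01). Of its 4 probe sets, 2 passed this test. Lst1, a leukocyte-specific transcript, gave -2.50 in KO and -0.37 in Wt (difference -2.13 ± 0.29, adjusted p = 0.01). Nsf, the ATPase that recycles fusion complexes, gave -1.86 in KO and -0.84 in Wt (difference -1.02 ± 0.17, adjusted p = 0.0396). Mog (1.35), Gfap (-1.17), Nfix (-0.72) and Syt5 (-1.71) came next and did not pass (adjusted p = 0.087 each). The myelin list as a whole had a median of 1.25 in KO and 0.32 in Wt, and 2 of its 15 members passed the test of the difference.

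Single animals moved these few calls. Without animal 3389 or without animal 3406, 0 probe sets passed the test of the difference, without 3363 1 was higher and 0 lower, without 3403 1 was higher and 2 lower and without 3396 5 were higher and 1 lower. Without Wt animal 3405, 43 were higher and 39 lower. In a simulation on the real arrays' means and spread, this test recovered 60% of planted differences of 1 log2 unit and 96% of those of 2, so a smaller true difference could be missed. The KO contrast itself recovered 72% at 1 log2 unit and 94% at 2. Far fewer differences were planted than the real KO contrast called, and the noise was normal with no floor. These shares therefore need not hold for the real arrays.

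**Figure D5:**
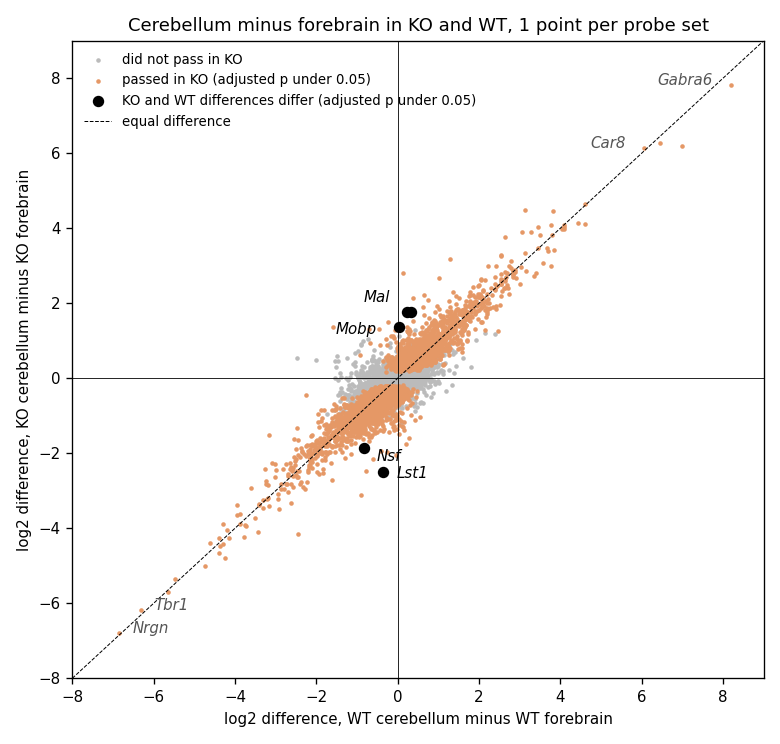
log2 difference between cerebellum and forebrain in Wt (x axis) and KO (y axis), 1 point per probe set; orange points passed in KO and black points are the 5 probe sets that passed the test of the difference between genotypes. Points gather along the dashed line of equal difference, with Gabra6 and Car8 at one end and Nrgn and Tbr1 at the other. The KO cerebellum signals of Nrgn and Tbr1 lie under the floor, or just above it for Tbr1 in animal 3403. Mal and Mobp lie above the dashed line and Lst1 and Nsf below it.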

How the data were processed

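Total RNA of cerebellum, hippocampus and cortex from 3 KO and 3 Wt mice was measured on 18 arrays with 12488 probe sets. The authors deposited 1 scaled linear intensity per probe set and array (trimmed mean 150.07 to 150.08); its software was not given in the sources used here. The precision is limited by the number of animals, 3 per genotype. Whether replicates differ in more than the animal is not stated. With animal as a block, p-values rest on how far regional differences vary among these animals, not on the animals' overall levels. limma also draws each probe set's variance towards that of probe sets of like intensity.

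From these, log2 was taken after setting lower values to the floor of 9.46. Control probe sets (66) and probe sets not above the 40th percentile of an array on at least 3 of 18 arrays were left out, leaving 8382. Differences were tested with limma 3.58.1 in R 4.3.3 (region plus animal as a block, intensity trend, Benjamini-Hochberg over 8382, threshold 0.05); 3 pairs alone allow no exact p under 0.25. The difference between genotypes was fitted on all 18 arrays. Pairing comes from the animal numbers in the labels. Deviations of KO arrays of 1 animal from their region means correlated at 0.092 to 0.195 (median 0.146), those of different animals at a median of -0.062. Such deviations cancel out over a region's 3 arrays. The sign of the second value thus follows from that of the first, and it adds no separate evidence for the pairing. A list counts each gene once, by its brightest probe set. Symbols come from the platform annotation, updated through RefSeq (10833 probe sets with 1 symbol, 396 with several, 1193 with none; 10817 matched GRCm38.p6).

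Members and lists were chosen with earlier results of these data known. Genes named by rule were the 12 largest differences in each direction with all 9 values above the floor and arrays wholly apart, the 6 brightest in each direction with the other side under the floor (a bound computed against the floor), up to 4 called members per list, the genotype differences, all GABA and ionotropic glutamate genes, and the 6 closest profiles to Gabra6 and Tbr1. Others that a count or a family turned on (such as Zic2, Meis2, Eomes, Nptx1, Fos, Mbp and Ttr) were chosen after their values were seen. Of 85 higher and 88 lower genes by at least 2 log2 units, 65 and 62 had a full-length promoter in the table and were counted. The limma fit was tested on simulated data, with the limits given above, and made 5 false calls of 149 for the KO contrast and 7 of 132 for the genotype difference. Alternatives covered scaling, floor, filter, trend, block, pooled fit, 1 difference per animal and each animal left out.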

Additional observations from a re-analysis of the deposited data

Results flagged for a closer look

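In 4 genes the cerebellum against forebrain difference was not the same in KO and Wt by the test of that difference (limma on 18 arrays, 3 animals per genotype). The KO minus Wt difference was -2.13 for Lst1 (adjusted p = 0.01), 1.54 for Mal (adjusted p = 0.01), 1.33 for Mobp (adjusted p = 0.01) and -1.02 for Nsf (adjusted p = 0.0396). Lst1 and Nsf were further below forebrain in KO, and the myelin genes Mal and Mobp further above it. Mean Mal signal in KO and Wt was 937 and 949 in cerebellum, 350 and 886 in hippocampus and 231 and 730 in cortex. For Mobp the means were 1840 and 1708, 786 and 1643, and 674 and 1752. For both genes the genotypes were closer in cerebellum than in forebrain, where KO was lower. Lst1 did not pass without animal 3363, 3389 or 3406, Mal without 3363, 3389, 3403 or 3406, Mobp without 3389 or 3406 and Nsf without 3363, 3389, 3403, 3406 or 3396. None of the 4 passed with no filter, with no intensity trend or with 1 difference per animal.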

How the results depend on the processing

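Over all alternatives, the KO contrast gave 1280 to 2263 higher and 1443 to 2091 lower probe sets. With the replicate block left out it gave 1636 and 1900, with 1 difference per animal 1635 and 1677, and in 1 fit of 18 arrays 1770 and 1988. KO cerebellum against cortex gave 1070 to 1180 higher with 1 animal left out, and the Wt contrast 801 to 1063 higher and 917 to 1397 lower, with 1080 lower by 1 difference per animal. The genotype difference gave 0 higher and 0 lower with no filter, no intensity trend or 1 difference per animal, 2 higher and 1 lower with no replicate block, and 0 to 43 higher and 0 to 39 lower with 1 animal left out. The cause was not tested. Of 145 named probe sets called in KO, 131 kept their call under every alternative run; none reversed its direction. Of 32 list medians 28 kept their sign, the others being GABA receptors, calcium, ribosomal and potassium channel genes. Values under the floor limit folds to bounds.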
